A study of Homo sapiens with 12 samples.

Results

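Doxorubicin-only relapses (Doxo) of the HEL acute myeloid leukemia line were compared with relapses after the 3-drug regimen (Doxo+Cyta+DAC) across all genes of a deposited RNA sequencing count table. The samples were chosen by their labelled treatment alone: 3 Doxo libraries (replicates 4, 5 and 6) and 4 Doxo+Cyta+DAC libraries (replicates 30, 31, 32 and 33), together 7 of the 12 samples of the series. Barcoded HEL cells, in which each starting cell carries a heritable DNA tag, were exposed for 72 h to 1.8 µM doxorubicin alone, or to the same doxorubicin with 6 µM cytarabine and 0.1 µM decitabine, and the survivors were washed and grown for about 30 days until they had regained the seeded cell number. The other libraries, untreated cells kept in DMSO (NT, n = 2) and relapses after doxorubicin with cytarabine (Doxo+Cyta, n = 3), are given beside the comparison for reference.

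HEL is an established erythroleukemia line that expresses erythroid and megakaryocytic genes and carries an activating mutation of JAK2, and every group shares that background. Doxorubicin is an anthracycline that traps topoisomerase II on DNA and intercalates between bases. Cytarabine and decitabine are cytidine analogs that the kinase DCK activates inside the cell. Cytarabine stalls DNA synthesis, and decitabine, once in DNA, traps and depletes the maintenance methyltransferase DNMT1, so that methylation is lost over the following divisions. The 2 groups differ by both cytarabine and decitabine, and within this comparison alone the effects of these agents cannot be told apart. All libraries come from 1 cell line, each relapse is a mixture of regrown clones, and in such bulk samples fewer cells of a type and less RNA per cell cannot be told apart. The labels describe biological replicates without naming the cultures, and p-values measure the spread between these samples only.

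Total counts lay between 12763582 and 19106235 per library, and the floor of detection was set at 3 counts per library. Levels are TMM-scaled CPM (reads of a gene relative to the library's total), which are not divided by transcript length. The root-mean-square difference in log2 CPM over the tested genes was 0.775 to 1.09 between a Doxo and a Doxo+Cyta+DAC library, against 0.298 to 0.525 within Doxo and 0.414 to 0.513 within Doxo+Cyta+DAC. Doxo replicate 4 stood apart from replicates 5 and 6 and was the Doxo library nearest to the Doxo+Cyta+DAC relapses, so values without it are given where they move a result. All 10 HEL markers were present in every library, with a summed level of 9275 to 10066 CPM in Doxo and 6308 to 8506 CPM in Doxo+Cyta+DAC. Among markers of other cell types, CD3D, CD3G, MS4A1, PAX5, ELANE, PRTN3 and DCN held no count in any of the 7 libraries. The T cell list summed to 46.8 to 55.7 CPM in Doxo and 19.9 to 43.7 CPM in Doxo+Cyta+DAC, nearly all of it from CD2, and the B cell list to 2.33 to 3.35 and 0.963 to 1.73 CPM. The monocyte list summed to 54.2 to 65.0 and 44.7 to 54.3 CPM, the endothelial list to 140 to 153 and 169 to 219 CPM, and the granulocyte, fibroblast and epithelial lists to at most 1.63 CPM. The part of these genes in the results below was not tested.

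The 2 relapse types differed across a large share of the transcriptome. The quasi-likelihood test of edgeR was run on 14164 genes. At an adjusted p under 0.01, 3294 (23.3%) were higher and 3204 (22.6%) lower in Doxo, 6498 (45.9%) in either direction. Only such genes are described as higher or lower below. At a fold change over 2 as well, 1689 genes (11.9%) were higher and 1375 (9.71%) lower, and the word called is kept for these. Beyond 4-fold there were 399 higher and 220 lower genes, and beyond 8-fold 95 and 34. The median log2 fold change of all tested genes was 0.01. The genes called higher summed to 97103 CPM in Doxo and 36013 CPM in Doxo+Cyta+DAC, and those called lower to 47097 and 119408 CPM. The same genes summed to 92405 and 46888 CPM in Doxo+Cyta, close to the Doxo values, although these sums share the selection on Doxo. In the same model, 128 genes (0.904%) differed between Doxo and Doxo+Cyta and 6704 (47.3%) between Doxo+Cyta and Doxo+Cyta+DAC at an adjusted p under 0.01. These comparisons share libraries with the one reported here, and their values are set beside it only for named genes.

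**Figure D1:**
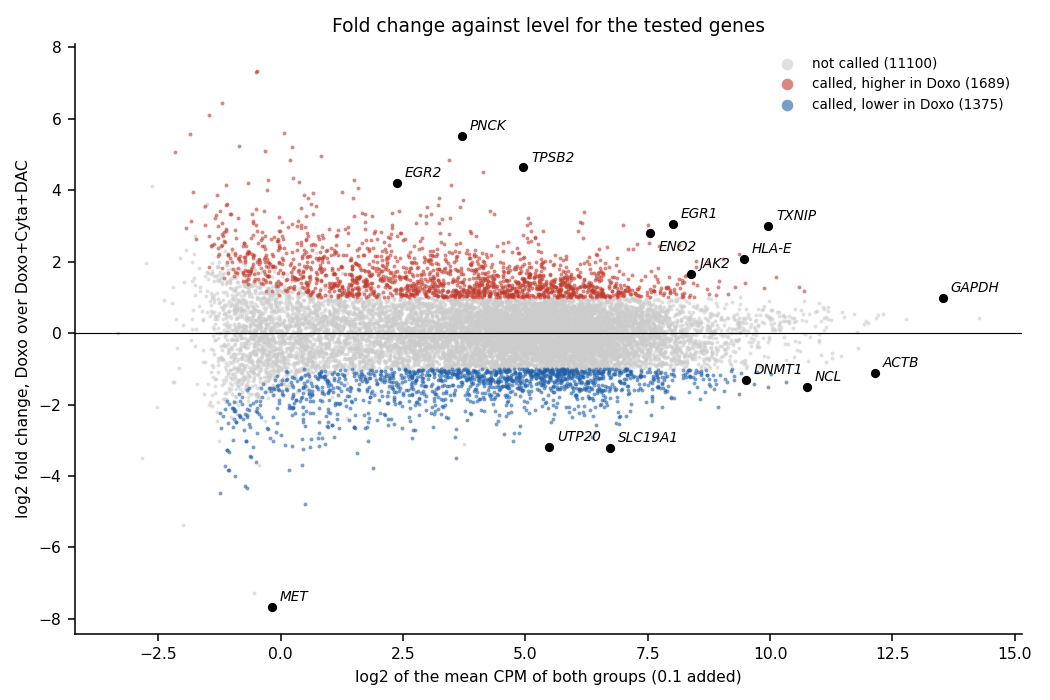
Log2 fold change (Doxo over Doxo+Cyta+DAC, vertical axis) against the log2 mean CPM of the 7 libraries (horizontal axis, 0.1 CPM added) for the 14164 tested genes. Red points are the 1689 genes called higher in Doxo, blue points the 1375 called lower and grey points the rest. Black points mark 15 genes described in the text, from MET at a fitted -7.67 to PNCK at 5.51. MET had no count in any Doxo library, so its fold is only bounded, at least 8.15-fold lower in Doxo.

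The largest changes toward Doxo, among genes whose libraries did not overlap and whose Doxo mean reached 10 CPM, were in PNCK, FAM178B, the tryptases TPSB2, TPSAB1 and TPSD1, NTN4, PCSK4, ZC3H6, ALDH3B1 and ABCC3. Libraries did not overlap for 30.2% of all tested genes in this direction and for 29.7% in the other, so lack of overlap alone is common here. PNCK (chrX:153669733-153674361, minus strand), a calcium/calmodulin-dependent kinase, stood at 27.5, 26.8 and 21.6 CPM in the Doxo libraries and 0.0613, 0.138, 0.735 and 1.35 CPM in the Doxo+Cyta+DAC libraries. It was at or under 3 counts in Doxo+Cyta+DAC replicates 30 and 31 and low in 32 and 33 (log2 fold change 5.51, SE 0.48, adjusted p = 9.52e-07), and without replicate 33 the log2 fold change was 6.20. PNCK was at 9.94 ± 4.35 CPM in Doxo+Cyta (SD, n = 3), between both groups.

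The tryptases, serine proteases of mast cell and basophil granules, lie side by side on chromosome 16 (TPSB2 chr16:1228336-1230184, minus strand, TPSAB1 chr16:1240677-1242554, plus strand, TPSD1 chr16:1256272-1258493, plus strand). TPSB2 stood at 36.6, 68.9 and 72.7 CPM in the Doxo libraries and 1.84, 1.03, 2.68 and 4.12 CPM in the Doxo+Cyta+DAC libraries, and TPSAB1 at 21.8, 37.8 and 41.2 CPM in Doxo and 1.29, 0.619, 1.57 and 2.53 CPM in Doxo+Cyta+DAC. Every Doxo library was above every Doxo+Cyta+DAC library for both (log2 fold change 4.64, SE 0.33, adjusted p = 2.33e-07; log2 fold change 4.50, SE 0.31, adjusted p = 2.23e-07). Untreated cells held 15.5 and 8.55 CPM, below Doxo and above Doxo+Cyta+DAC. The 3 genes are near-identical copies, and how reads were split among them is uncertain.

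FAM178B stood at 25.1, 19.5 and 17.7 CPM in Doxo and 0.429, 0.413, 0.472 and 1.74 CPM in Doxo+Cyta+DAC, with Doxo+Cyta+DAC replicate 33 the highest of its group (log2 fold change 4.84, SE 0.32, adjusted p = 1.68e-07; 5.53 without that library). NTN4, a secreted netrin, stood at 16.7, 25.7 and 20.3 CPM in Doxo and 0.735, 0.688, 1.05 and 2.38 CPM in Doxo+Cyta+DAC (log2 fold change 4.15, SE 0.34, adjusted p = 5.52e-07). PCSK4, a proprotein convertase, stood at 18.0, 15.8 and 18.5 CPM in Doxo and 0.980, 1.24, 1.10 and 1.82 CPM in Doxo+Cyta+DAC (log2 fold change 3.78, SE 0.19, adjusted p = 3.13e-08). The zinc finger gene ZC3H6 (log2 fold change 3.73, SE 0.29, adjusted p = 4.21e-07) and TPSD1 (log2 fold change 3.54, SE 0.23, adjusted p = 1.68e-07) were higher too. In Doxo+Cyta every library was above every Doxo+Cyta+DAC library for each of the 10 genes. NT means were 26.5 CPM for FAM178B, 16.2 for NTN4, 16.4 for ZC3H6, 11.2 for PCSK4 and 9.73 for ALDH3B1. These genes did not pass between Doxo and NT and were lower in Doxo+Cyta+DAC than in NT. PNCK, the tryptases and ABCC3 were higher in Doxo than in NT.

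**Figure D2:**
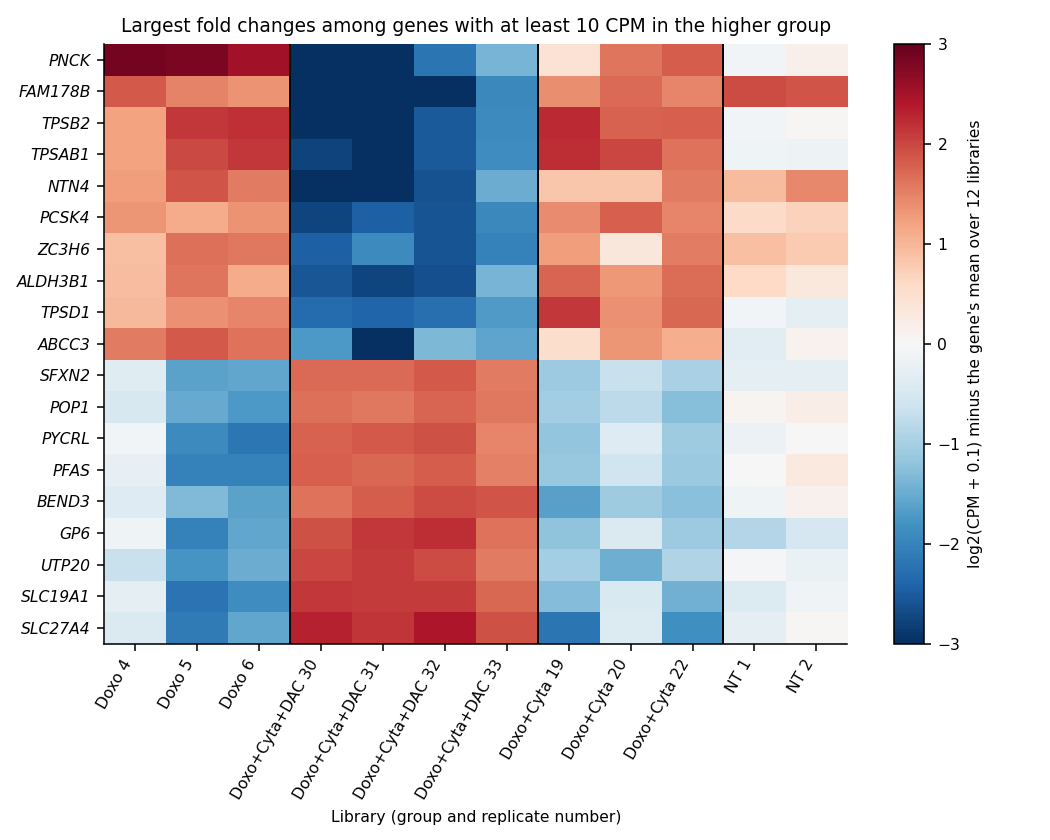
Genes with the largest fold changes in each direction under the naming rule (rows) in the 12 libraries (columns, by group and replicate number). Colour gives log2(CPM + 0.1) minus the gene's mean over the libraries, from blue at -3 to red at 3, and the upper 10 rows are higher in every Doxo than in any Doxo+Cyta+DAC library while the rows under them are the reverse, where Doxo replicate 4 is paler than 5 and 6.

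The largest changes in the other direction included SLC27A4, SLC19A1, UTP20, GP6, BEND3, PFAS, PYCRL, POP1 and SFXN2. SLC19A1, the reduced folate carrier, stood at 39.1, 10.1 and 12.8 CPM in the Doxo libraries and 204, 202, 202 and 156 CPM in the Doxo+Cyta+DAC libraries. Doxo replicate 4 was the highest Doxo library and still far below every Doxo+Cyta+DAC library (log2 fold change -3.22, SE 0.40, adjusted p = 1.39e-05). The fatty acid transport protein SLC27A4 showed the same order, at 3.42, 0.989 and 1.51 CPM in Doxo and 23.3, 20.8, 25.2 and 17.7 CPM in Doxo+Cyta+DAC (log2 fold change -3.49, SE 0.40, adjusted p = 7.99e-06). Without Doxo replicate 4 the log2 fold changes were -4.07 for SLC19A1 and -4.13 for SLC27A4.

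PFAS, an enzyme of purine synthesis, stood at 36.8, 10.7 and 10.7 CPM in Doxo and 152, 146, 155 and 125 CPM in Doxo+Cyta+DAC (log2 fold change -2.90, SE 0.36, adjusted p = 1.43e-05; -3.76 without Doxo replicate 4). POP1, a shared subunit of RNase P and RNase MRP, changed by -2.81 ± 0.25 (SE, adjusted p = 9.52e-07) on the log2 scale, and the mitochondrial carrier SFXN2 by -2.79 ± 0.25 (SE, adjusted p = 1.32e-06). PYCRL, of proline synthesis, changed by -2.89 (-3.88 without Doxo replicate 4) and BEND3, a DNA-binding chromatin protein, by -2.93. GP6, the platelet collagen receptor, stood at 10.8, 2.85 and 3.98 CPM in Doxo and 44.7, 52.2, 55.4 and 36.8 CPM in Doxo+Cyta+DAC (log2 fold change -3.02, SE 0.36, adjusted p = 1.08e-05; -3.80 without Doxo replicate 4), but its counts are summed over 10 contigs and are uncertain. In Doxo+Cyta these genes held between 1.18 CPM (BEND3) and 23.4 CPM (SLC19A1) on average, with every library below every Doxo+Cyta+DAC library.

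Among the genes called higher in Doxo, at a fold change over 2, those with the largest differences in mean CPM included TXNIP, VIM, GLUL and HLA-E. GLUL, glutamine synthetase, stood at 2579, 2206 and 2135 CPM in the Doxo libraries and 854, 685, 1008 and 1545 CPM in the Doxo+Cyta+DAC libraries, and the intermediate filament gene VIM at 1853, 2327 and 2347 CPM in Doxo and 1020.0, 731, 732 and 1093 CPM in Doxo+Cyta+DAC. No library of one group reached the other (log2 fold change 1.17, SE 0.20, adjusted p = 0.000162; log2 fold change 1.28, SE 0.15, adjusted p = 7.22e-06). Among the genes called lower in Doxo, with the same limit on the fold, ACTB, NCL, HNRNPA2B1, HSP90AA1 and CFL1 had the largest differences. The actin gene ACTB stood at 4003, 2265 and 2341 CPM in Doxo and 6008, 7076, 6191 and 5632 CPM in Doxo+Cyta+DAC, with replicate 4 again nearest to the other group (log2 fold change -1.12, SE 0.21, adjusted p = 0.000418). The actin-binding protein gene CFL1 changed by -1.15 ± 0.20 (SE, adjusted p = 0.000227) on the log2 scale, the splicing factor gene HNRNPA2B1 by -1.36 ± 0.12 (SE, adjusted p = 9.58e-07) and the chaperone gene HSP90AA1 by -1.50 ± 0.11 (SE, adjusted p = 3.42e-07).

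Among low genes, CDKN1C (chr11:2883218-2885765, minus strand), which encodes the CDK inhibitor p57 and is imprinted, had 9, 27 and 24 counts in Doxo and 0, 0, 0 and 0 counts in Doxo+Cyta+DAC. It was seen in every Doxo library and in none of the 4 Doxo+Cyta+DAC libraries, at least 6.31-fold higher against 3 counts per library (adjusted p = 9.33e-05), and Doxo+Cyta held 1.53 CPM. The creatine transporter pseudogene SLC6A10P was at least 6.21-fold higher on the same scale, with 21, 17 and 19 counts in Doxo and 0, 0, 0 and 0 counts in Doxo+Cyta+DAC, and pseudogene reads may belong to related copies. COL17A1, a collagen of epithelial junctions, and the peptidase-like gene NAALADL1 had count ratios of 59.4 (95% counting interval 16.0 to 498) and 43.2 (95% counting interval 14.3 to 213). Their fitted log2 fold changes were 5.59 and 5.22, and that of NAALADL1 moved to 6.19 without Doxo+Cyta+DAC replicate 31. Without replicate 32 the fit gave 7.91 for COL17A1. No count of COL17A1 was then left in Doxo+Cyta+DAC, so 7.91 is not a measured size.

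In the other direction, MET (chr7:116672405-116798386, plus strand), the hepatocyte growth factor receptor, had 0, 0 and 0 counts in Doxo and 19, 50, 25 and 4 counts in Doxo+Cyta+DAC. All 4 Doxo+Cyta+DAC libraries held reads and no Doxo library did, at least 8.15-fold lower in Doxo (adjusted p = 0.000585; fitted -7.67, and -6.99 without Doxo+Cyta+DAC replicate 31, the highest library). FAM81A stood at 0.0698, 0.116 and 0.0631 CPM in Doxo and 2.08, 4.47, 1.84 and 1.74 CPM in Doxo+Cyta+DAC (log2 fold change -4.78, SE 0.55, adjusted p = 7.40e-06) and ENOX1, a cell surface oxidase, at 0.209, 0.698 and 0.505 CPM in Doxo and 6.43, 9.15, 6.19 and 4.91 CPM in Doxo+Cyta+DAC (log2 fold change -3.77, SE 0.34, adjusted p = 1.29e-06). The GTPase-activating protein gene ARAP2 changed by -3.83 (-3.15 without replicate 31). TDO2, a tryptophan dioxygenase, had 0, 1 and 1 counts in Doxo and 13, 33, 9 and 6 counts in Doxo+Cyta+DAC. Its count ratio, Doxo+Cyta+DAC over Doxo, was 23.1 (95% counting interval 6.12 to 195), with a fitted log2 fold change of -3.57 without replicate 31, -4.32 with it.

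**Figure D3:**
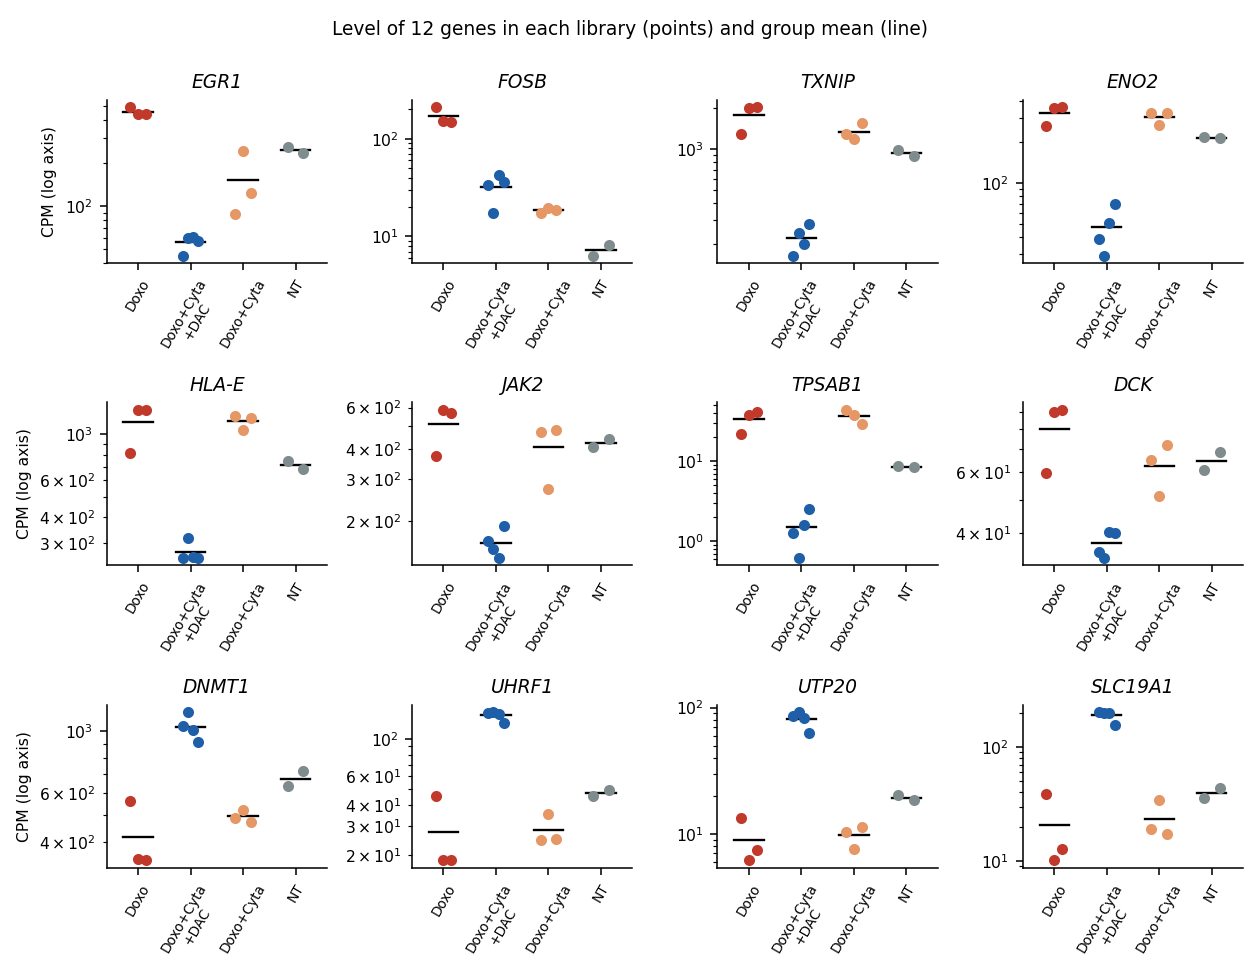
Levels of 12 genes in CPM (vertical axes, log scale) in each library, by group (horizontal axes), with lines at the group means. In EGR1, FOSB, TXNIP, ENO2, HLA-E, JAK2, TPSAB1 and DCK all 3 Doxo points lie above the 4 Doxo+Cyta+DAC points, and in DNMT1, UHRF1, UTP20 and SLC19A1 all 3 lie below.

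Immediate early genes respond to growth factor and stress signalling within minutes without new protein synthesis, and many encode the AP-1 and EGR transcription factors. Of this list 24 of the 39 tested members were higher in Doxo and 3 were lower (median log2 fold change 1.31), against 23.3% and 22.6% of all tested genes. Every list below is to be read against these same shares. EGR1, a zinc finger factor, stood at 493, 445 and 444 CPM in the Doxo libraries and 45.0, 60.2, 60.6 and 57.4 CPM in the Doxo+Cyta+DAC libraries. All Doxo libraries were above all Doxo+Cyta+DAC libraries (log2 fold change 3.05, SE 0.25, adjusted p = 6.38e-07), and the means were 151 ± 81.4 CPM in Doxo+Cyta and 247 ± 16.6 CPM in NT. Its promoter window in RefSeq (build GRCh38.p14, chr5:138465229-138465528, plus strand, from 250 bases before the gene start to 50 after) is shown because it holds CArG boxes, the letters of the serum response element, here in capitals.

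EGR1: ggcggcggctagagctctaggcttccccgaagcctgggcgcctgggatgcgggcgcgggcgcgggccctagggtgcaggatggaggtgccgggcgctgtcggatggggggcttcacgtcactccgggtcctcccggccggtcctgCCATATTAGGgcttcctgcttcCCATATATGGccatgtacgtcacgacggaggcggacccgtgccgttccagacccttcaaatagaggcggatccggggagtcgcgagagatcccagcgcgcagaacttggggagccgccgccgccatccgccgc

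The CArG boxes, CC, then 6 A or T, then GG, searched on both strands, begin 105 and 83 bases before the start. Windows of 10901 of the tested genes were available, 1.064% of them held a CArG box, and in this list 2 of 30 did. A match is a description of letters and shows no binding.

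EGR2, a relative of EGR1, stood at 10.6, 9.20 and 9.28 CPM in Doxo and 0.368, 0.619, 0.420 and 0.713 CPM in Doxo+Cyta+DAC (log2 fold change 4.21, SE 0.33, adjusted p = 4.52e-07). The third family gene, EGR3, changed by 2.06. FOSB, an AP-1 subunit, stood at 210.0, 152 and 149.8 CPM in Doxo and 33.4, 17.4, 42.3 and 35.9 CPM in Doxo+Cyta+DAC (log2 fold change 2.40, SE 0.22, adjusted p = 1.57e-06). The growth-restraining factor gene KLF10 stood at 286, 326 and 325 CPM in Doxo and 46.0, 51.0, 62.6 and 57.4 CPM in Doxo+Cyta+DAC (log2 fold change 2.53, SE 0.11, adjusted p = 1.51e-08). For all 3 the groups were far apart, and FOS (1.93), JUNB (1.27), JUN (1.14), KLF2 (2.23), KLF6 (2.19), NR4A1 (2.06) and DUSP1 (1.85) were higher too. IER3 (-1.63), PHLDA1 (-1.54) and SPRED1 (-1.40), an inhibitor of RAS signalling, were lower. IER3, counted over 6 contigs, no longer passed without Doxo replicate 5 (adjusted p = 0.0121). BTG2, the member with the most CPM, stood at 508, 605 and 538 CPM in Doxo and 271, 941, 763 and 549.7 CPM in Doxo+Cyta+DAC, spread widely in Doxo+Cyta+DAC and did not pass (log2 fold change -0.20, SE 0.29, adjusted p = 0.573).

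Several of these genes also differed between Doxo and Doxo+Cyta. FOSB held 18.6 ± 1.06 CPM in Doxo+Cyta and 7.30 ± 1.30 CPM in NT and EGR2 0.817 ± 0.576 CPM in Doxo+Cyta and 0.611 ± 0.0632 CPM in NT. In Doxo relative to Doxo+Cyta, FOSB (log2 fold change 3.20, SE 0.26, adjusted p = 9.54e-05), EGR2 (log2 fold change 3.57, SE 0.35, adjusted p = 0.000243) and EGR1 (log2 fold change 1.61, SE 0.27, adjusted p = 0.00579) were higher, as were ATF3 (log2 fold change 1.605, SE 0.27, adjusted p = 0.00612), CXCL8 (log2 fold change 2.01, SE 0.31, adjusted p = 0.00449), MCL1 (log2 fold change 0.95, SE 0.11, adjusted p = 0.00104) and PLK2 (log2 fold change 2.85, SE 0.43, adjusted p = 0.00357). By contrast KLF10 held 205 ± 14.3 CPM in Doxo+Cyta (SD, n = 3), between the groups. Genes passing this side comparison toward Doxo were 0.777% of those tested.

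**Figure D4:**
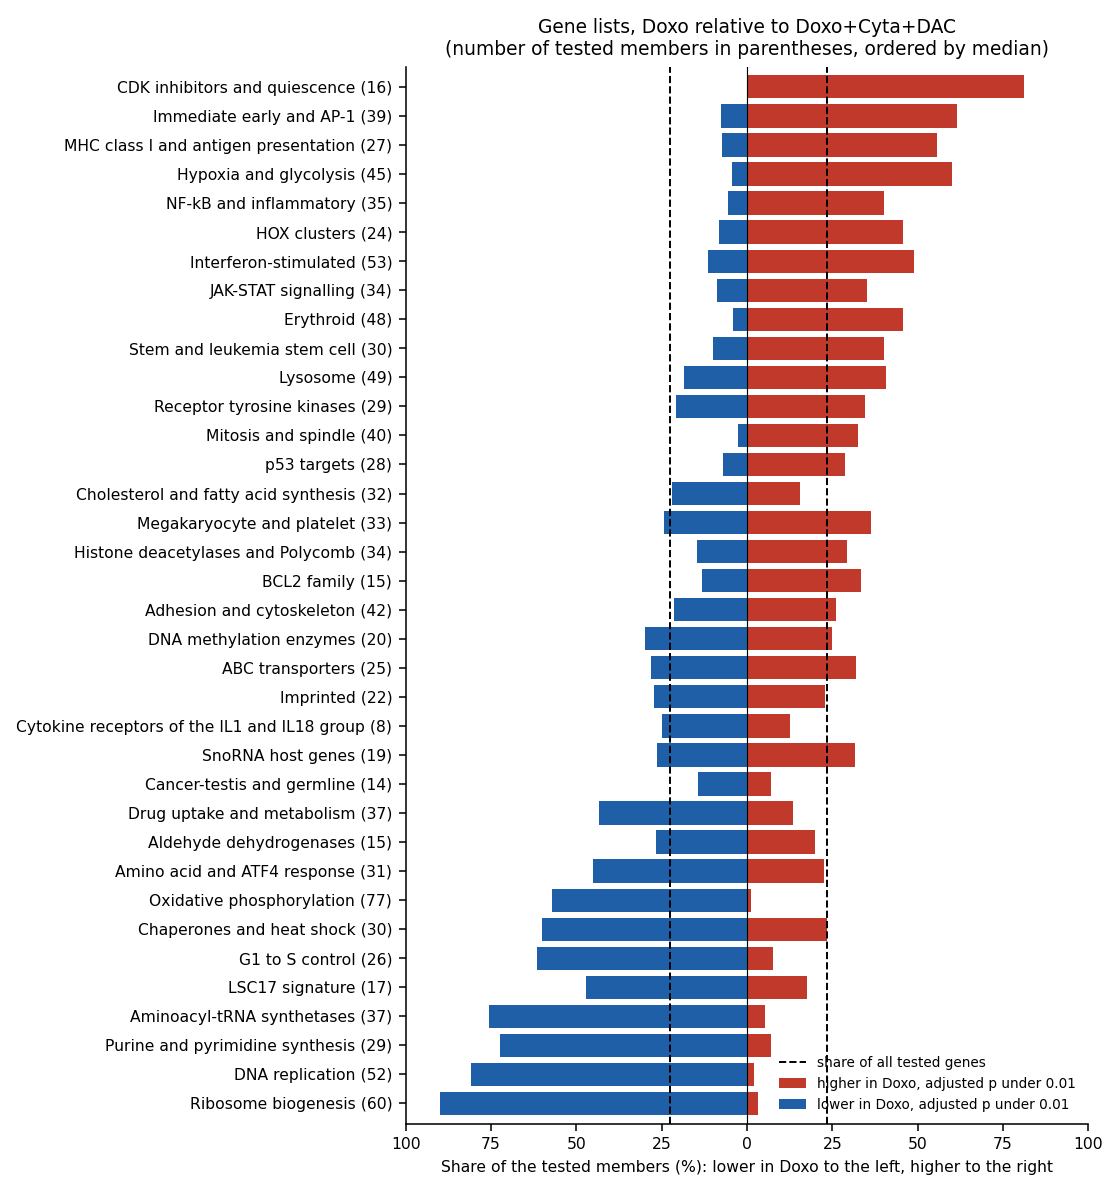
Share (%) of tested members of each of 36 gene lists that were higher (red, right) or lower (blue, left) in Doxo at an adjusted p under 0.01, ordered by median, with the number tested in parentheses. Dashed lines mark the shares over all tested genes, 23.3% higher and 22.6% lower, with CDK inhibitors and quiescence at the top and ribosome biogenesis at the bottom.

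Inhibitors of cyclin-dependent kinases and antagonists of MYC restrain entry into S phase, and of this list 13 of the 16 tested members were higher in Doxo and 0 were lower (median 1.46). TXNIP, a thioredoxin-binding arrestin that also lowers glucose uptake, stood at 1290.2, 2010.2 and 2020.2 CPM in the Doxo libraries and 165, 239.8, 202 and 279.6 CPM in the Doxo+Cyta+DAC libraries. The lowest Doxo library, replicate 4, was several-fold above the highest Doxo+Cyta+DAC library (log2 fold change 3.00, SE 0.19, adjusted p = 1.50e-07). The MYC antagonist MXI1 stood at 38.5, 63.4 and 66.3 CPM in Doxo and 7.29, 8.39, 8.13 and 11.9 CPM in Doxo+Cyta+DAC (log2 fold change 2.66, SE 0.22, adjusted p = 5.58e-07), and its relative MXD4 at 22.2, 31.7 and 35.5 CPM in Doxo and 6.37, 6.74, 5.77 and 8.71 CPM in Doxo+Cyta+DAC (log2 fold change 2.12, SE 0.17, adjusted p = 5.11e-07). The members that did not pass were CDKN1A (0.69, adjusted p = 0.15), CDKN2C (0.01, adjusted p = 0.969) and BTG2 (-0.20, adjusted p = 0.573). TOB1, an antiproliferative deadenylase adaptor, changed by 2.52. CDKN2D (p19) stood at 202, 167 and 171 CPM in Doxo and 104, 102, 109 and 116 CPM in Doxo+Cyta+DAC (log2 fold change 0.74, SE 0.14, adjusted p = 0.000605). CDKN1B (p27) stood at 35.04, 59.2 and 68.3 CPM in Doxo and 29.6, 31.4, 29.7 and 35.2 CPM in Doxo+Cyta+DAC, with Doxo replicate 4 inside the other group (log2 fold change 0.79, SE 0.20, adjusted p = 0.00394), and no longer passed without Doxo replicate 5 or 6 or Doxo+Cyta+DAC replicate 30 or 32 (adjusted p 0.0123 to 0.0322).

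Of the G1 to S list, 2 of the 26 tested members were higher in Doxo and 16 were lower (median -0.69). E2F1, an activator of S-phase genes, stood at 72.8, 32.6 and 30.9 CPM in Doxo and 149, 136, 153 and 124 CPM in Doxo+Cyta+DAC (log2 fold change -1.63, SE 0.28, adjusted p = 0.000178), and its partner TFDP1 at 68.2, 35.4 and 38.0 CPM in Doxo and 162, 159, 174 and 164 CPM in Doxo+Cyta+DAC (log2 fold change -1.81, SE 0.20, adjusted p = 4.81e-06). E2F2 changed by -1.52, RBL1 (p107) by -1.72, CCNE2 by -1.38 and CDK4 by -1.50. RBL2 (p130), the pocket protein of resting cells, went the other way at 83.7, 115 and 112 CPM in Doxo and 31.1, 35.6, 32.7 and 41.0 CPM in Doxo+Cyta+DAC (log2 fold change 1.56, SE 0.18, adjusted p = 9.35e-06). MYC stood at 273, 224 and 216 CPM in Doxo and 504, 455, 512 and 539.9 CPM in Doxo+Cyta+DAC (log2 fold change -1.08, SE 0.11, adjusted p = 3.74e-06). CCNE1 changed by -1.44, by -2.07 without Doxo replicate 4, and no longer passed without Doxo replicate 5 or 6 (adjusted p 0.0193 to 0.0197). CCND3, the member with the most CPM, changed by -0.73 and no longer passed without Doxo replicate 5 or 6 or Doxo+Cyta+DAC replicate 31, 32 or 33 (adjusted p 0.0109 to 0.0447).

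DNA replication genes were mostly lower: 1 higher and 42 lower of 52 tested (median -1.10). These encode the MCM helicase, the polymerases and the factors that load them at origins. POLE, the catalytic subunit of the leading-strand polymerase, stood at 96.7, 52.6 and 53.4 CPM in the Doxo libraries and 209, 209, 217 and 183 CPM in the Doxo+Cyta+DAC libraries. The groups did not overlap (log2 fold change -1.600, SE 0.19, adjusted p = 9.00e-06). Its RefSeq window (GRCh38.p14, chr12:132687293-132687592, minus strand) is shown because it holds the E2F letters TTGGCGC in 2 places on the opposite strand, where they read GCGCCAA, in capitals.

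POLE: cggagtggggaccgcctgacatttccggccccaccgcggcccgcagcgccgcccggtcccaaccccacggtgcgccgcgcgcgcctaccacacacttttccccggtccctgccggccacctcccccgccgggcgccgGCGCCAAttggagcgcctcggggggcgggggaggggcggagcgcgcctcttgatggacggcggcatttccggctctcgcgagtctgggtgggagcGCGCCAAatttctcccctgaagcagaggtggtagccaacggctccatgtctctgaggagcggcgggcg

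The matches begin 113 and 18 bases before the start. TTCGCGC or TTGGCGC, on either strand, stood in 17 of 45 windows of this list (37.78%), in 8.302% of the windows of all tested genes, and in 10.83% and 6.441% of those of genes called lower and higher.

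POLA1, the primase-associated polymerase, stood at 18.1, 11.8 and 10.6 CPM in Doxo and 51.0, 52.96, 52.9 and 48.8 CPM in Doxo+Cyta+DAC (log2 fold change -1.93, SE 0.16, adjusted p = 7.13e-07). Claspin (CLSPN), a checkpoint adaptor at forks, stood at 35.5, 17.1 and 19.3 CPM in Doxo and 108, 111, 122 and 111 CPM in Doxo+Cyta+DAC (log2 fold change -2.24, SE 0.22, adjusted p = 1.83e-06), and the initiation factor MCM10 at 33.4, 21.8 and 24.6 CPM in Doxo and 123, 98.2, 105 and 109 CPM in Doxo+Cyta+DAC (log2 fold change -2.04, SE 0.15, adjusted p = 2.49e-07). All 3 were lower in every Doxo library. GINS4 changed by -2.10, CDC45 by -1.96, MCM3 by -1.65 and PCNA by -0.81. RRM2, the regulated subunit of ribonucleotide reductase and the member with the most CPM, changed less, at 445, 382 and 393 CPM in Doxo and 502, 591, 565 and 548 CPM in Doxo+Cyta+DAC (log2 fold change -0.44, SE 0.09, adjusted p = 0.000772). The one member higher was CDT1 (0.49), the licensing factor that is degraded in S phase, and 3 members were higher without Doxo replicate 4.

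Genes of mitosis and the spindle did not follow: 13 higher and 1 lower of 40 tested (median 0.30). NEK2, a centrosomal kinase, stood at 59.5, 104 and 104 CPM in Doxo and 23.7, 26.8, 21.2 and 27.95 CPM in Doxo+Cyta+DAC (log2 fold change 1.84, SE 0.18, adjusted p = 2.52e-06), and the checkpoint kinase BUB1 at 636, 716 and 729.5 CPM in Doxo and 255, 265, 283 and 336 CPM in Doxo+Cyta+DAC (log2 fold change 1.28, SE 0.12, adjusted p = 2.00e-06). In both, Doxo was above Doxo+Cyta+DAC in every library. CKAP2 changed by 0.89, UBE2C by 0.89, and the one lower member was the kinetochore gene SPC25 (-0.81), with 0 to 2 members lower when a Doxo library was left out. MKI67 (0.08), CDK1 (0.14) and CCNB1 (-0.26) did not pass. TOP2A, a mitotic topoisomerase and the target of doxorubicin, stood at 736, 869 and 863 CPM in Doxo and 593, 576, 595 and 690.5 CPM in Doxo+Cyta+DAC and missed the threshold (log2 fold change 0.42, SE 0.14, adjusted p = 0.0156).

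Ribosome biogenesis had the largest share of lower members of the 36 lists: 2 higher and 54 lower of 60 tested (median -1.22). These nucleolar factors transcribe, cleave and fold ribosomal RNA, and many are textbook MYC targets. UTP20, of the small subunit processome, stood at 13.3, 6.17 and 7.51 CPM in the Doxo libraries and 85.5, 92.2, 82.6 and 62.7 CPM in the Doxo+Cyta+DAC libraries. Each Doxo library was several-fold below the lowest Doxo+Cyta+DAC library (log2 fold change -3.18, SE 0.24, adjusted p = 3.77e-07). The RefSeq window of UTP20 (GRCh38.p14, chr12:101279855-101280154, plus strand) is shown for its E-box, CACGTG, the letters MYC and its partners recognise, in capitals 10 bases before the start.

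UTP20: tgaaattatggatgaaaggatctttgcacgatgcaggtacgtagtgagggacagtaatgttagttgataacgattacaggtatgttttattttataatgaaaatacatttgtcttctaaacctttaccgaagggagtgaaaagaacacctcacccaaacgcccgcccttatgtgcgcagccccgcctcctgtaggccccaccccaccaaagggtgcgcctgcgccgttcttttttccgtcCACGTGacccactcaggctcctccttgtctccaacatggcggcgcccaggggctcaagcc

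CACGTG stood in 19 of 49 windows of this list (38.78%), in 9.953% of the windows of all tested genes, in 16.57% of those called lower and in 8.615% of those called higher. Lists that were mostly higher in Doxo also held it, at 20% of windows for immediate early genes and 17.07% for hypoxia and glycolysis. In lists that were mostly lower it stood in 20% for nucleotide synthesis and 13.33% for DNA replication.

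EBNA1BP2, a large subunit assembly factor, stood at 54.9, 32.2 and 32.0 CPM in Doxo and 214, 200.4, 219 and 177 CPM in Doxo+Cyta+DAC (log2 fold change -2.35, SE 0.24, adjusted p = 2.96e-06). MRTO4 changed by -2.32, RRP1 by -2.31, BOP1 by -2.30 and the RNA polymerase I subunit POLR1A by -2.27. Nucleolin (NCL), an abundant nucleolar protein, stood at 1129, 770.2 and 795 CPM in Doxo and 2601, 2503, 2609.6 and 2559 CPM in Doxo+Cyta+DAC (log2 fold change -1.52, SE 0.13, adjusted p = 7.63e-07), and NPM1, the member with the most CPM, changed by -0.56. The higher members were TAF1D (0.85) and the polymerase I initiation factor RRN3 (0.51).

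Other biosynthetic lists leaned the same way. Of nucleotide synthesis genes, 2 of the 29 tested members were higher in Doxo and 21 were lower (median -0.90). CTPS1, which makes CTP, stood at 60.2, 21.8 and 25.1 CPM in Doxo and 205, 207, 224 and 191 CPM in Doxo+Cyta+DAC (log2 fold change -2.54, SE 0.30, adjusted p = 8.83e-06; -3.15 without Doxo replicate 4), CAD, the first enzymes of pyrimidine synthesis, at 127, 67.6 and 61.5 CPM in Doxo and 321, 322, 304 and 256 CPM in Doxo+Cyta+DAC (log2 fold change -1.82, SE 0.21, adjusted p = 7.58e-06), and NME1, a nucleoside diphosphate kinase, at 36.7, 19.0 and 21.0 CPM in Doxo and 129, 117, 118 and 109 CPM in Doxo+Cyta+DAC (log2 fold change -2.21, SE 0.23, adjusted p = 3.64e-06). All were lower in every Doxo library, whereas IMPDH2, the member with the most CPM, was higher (0.39) but no longer passed without Doxo replicate 5 or 6 (adjusted p 0.0138 to 0.0192).

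Aminoacyl-tRNA synthetases, which charge tRNAs, had 2 higher and 28 lower of 37 tested (median -0.82). IARS stood at 159, 96.0 and 91.1 CPM in Doxo and 305, 353, 342 and 329.5 CPM in Doxo+Cyta+DAC (log2 fold change -1.53, SE 0.16, adjusted p = 4.02e-06), PARS2 changed by -1.40 and VARS, counted over 7 contigs, by -1.61. EPRS, the member with the most CPM, did not pass (0.15), and DARS (1.12) and QARS (0.63) were higher.

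Of chaperones, 7 of the 30 tested members were higher in Doxo and 18 were lower (median -0.64). The mitochondrial HSPE1 stood at 20.3, 13.2 and 13.9 CPM in Doxo and 66.6, 60.9, 67.3 and 63.5 CPM in Doxo+Cyta+DAC (log2 fold change -2.03, SE 0.20, adjusted p = 2.35e-06), and HSPH1 at 76.2, 70.1 and 75.3 CPM in Doxo and 276, 298, 282 and 263 CPM in Doxo+Cyta+DAC (log2 fold change -1.92, SE 0.09, adjusted p = 1.57e-08). HSP90AB1, the member with the most CPM, changed by -0.65. Among the 7 higher members were the endoplasmic reticulum genes DNAJB9, at 15.01, 42.5 and 49.0 CPM in Doxo and 7.47, 9.35, 8.45 and 10.3 CPM in Doxo+Cyta+DAC (log2 fold change 2.004, SE 0.32, adjusted p = 0.000119), and HSPA5 (0.90), and the stress-inducible DNAJB1 (1.47), BAG3 (1.49) and HSPA1A (1.65), which reached at most 1.26 CPM, is counted over 5 contigs and no longer passed without Doxo replicate 5 or 6 or Doxo+Cyta+DAC replicate 30, 32 or 33 (adjusted p 0.0143 to 0.0243).

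Oxidative phosphorylation had 1 higher and 44 lower of 77 tested (median -0.47), with small changes. Of the members that passed, 8 were lower by over 2-fold. NDUFS6, a complex I subunit, stood at 43.5, 29.2 and 32.6 CPM in Doxo and 111, 108, 105 and 93.8 CPM in Doxo+Cyta+DAC (log2 fold change -1.57, SE 0.20, adjusted p = 1.62e-05), and cytochrome c (CYCS) at 101.2, 92.3 and 98.3 CPM in Doxo and 242, 279, 289 and 252 CPM in Doxo+Cyta+DAC (log2 fold change -1.45, SE 0.09, adjusted p = 1.64e-07). ATP5G1 changed by -1.42, NDUFB2 by -1.29 and ATP5B, the member with the most CPM, by -0.48. The number lower was 27 without Doxo replicate 5 and 29 without replicate 6, and the number higher was 3 without replicate 4.

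Hypoxia and glycolysis genes were largely higher. The hypoxia-inducible factors HIF1A and EPAS1 bind ACGTG and switch on glucose uptake, glycolysis and mitophagy genes when oxygen is low, and of this list 27 of the 45 tested members were higher in Doxo and 2 were lower (median 0.82). ANKRD37, a hypoxia-induced ankyrin repeat gene, stood at 5.24, 8.27 and 11.8 CPM in the Doxo libraries and 0.796, 1.03, 1.21 and 1.11 CPM in the Doxo+Cyta+DAC libraries. The lowest Doxo library was above the highest of the other group (log2 fold change 3.02, SE 0.26, adjusted p = 9.58e-07). Its RefSeq window (GRCh38.p14, chr4:185396591-185396890, plus strand) is shown for its ACGTG motifs, in capitals.

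ANKRD37: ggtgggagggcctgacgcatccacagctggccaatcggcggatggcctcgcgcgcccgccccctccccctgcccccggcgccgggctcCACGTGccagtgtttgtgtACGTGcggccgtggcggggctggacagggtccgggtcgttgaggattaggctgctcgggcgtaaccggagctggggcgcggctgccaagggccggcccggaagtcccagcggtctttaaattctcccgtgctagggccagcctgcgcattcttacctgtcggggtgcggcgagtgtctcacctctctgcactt

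The matches begin 162, 161 and 143 bases before the start, the first and second being the opposite strands of 1 CACGTG, which is also an E-box. ACGTG stood in 21 of 41 windows of this list (51.22%), in 26.5% of the windows of all tested genes, and in 25.76% and 31.92% of those called higher and lower. It was as frequent in the ribosome biogenesis list, whose members were mostly lower, at 25 of 49 windows (51.02%), so it did not set the hypoxia list apart.

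ENO2, a glycolytic enolase, stood at 263, 361 and 363 CPM in Doxo and 38.6, 29.4, 51.0 and 70.6 CPM in Doxo+Cyta+DAC (log2 fold change 2.80, SE 0.23, adjusted p = 5.58e-07), and NDRG1 at 69.9, 144 and 141 CPM in Doxo and 14.9, 20.1, 13.7 and 16.2 CPM in Doxo+Cyta+DAC (log2 fold change 2.87, SE 0.21, adjusted p = 3.30e-07). The mitophagy receptor BNIP3 stood at 472, 616 and 649 CPM in Doxo and 116, 123, 134 and 195 CPM in Doxo+Cyta+DAC (log2 fold change 2.03, SE 0.17, adjusted p = 5.76e-07). The collagen prolyl hydroxylase P4HA1 stood at 247, 418 and 414 CPM in Doxo and 52.5, 71.3, 63.0 and 76.9 CPM in Doxo+Cyta+DAC (log2 fold change 2.45, SE 0.19, adjusted p = 3.77e-07), and its relative P4HA2 changed by 2.49. All of these were higher in every Doxo library. GAPDH, the member with the most CPM, stood at 13719.6, 16403 and 16929 CPM in Doxo and 7145, 7978, 7462 and 8950.5 CPM in Doxo+Cyta+DAC (log2 fold change 0.99, SE 0.10, adjusted p = 2.36e-06), and ALDOC changed by 2.47, VEGFA by 1.06 and SLC2A1 by 0.98. Not all glycolysis genes took part: PFKFB3 (-0.88) and PFKP (-0.86) were lower, and LDHA (-0.22), PKM (-0.12), TPI1 (-0.29) and HIF1A itself (-0.22) did not pass. At the locus of the hypoxia-responsive microRNA miR-210, the MIR210 row had 15, 17 and 10 counts in Doxo and 0, 0, 1 and 0 counts in Doxo+Cyta+DAC, a count ratio of 55.5 (95% counting interval 9.43 to 2243). Its fitted log2 fold change of 5.24 became 6.83 without Doxo+Cyta+DAC replicate 32. No count was then left in that group, so 6.83 is not a measured size. Reads of the MIR210 row come from the precursor region and do not measure the mature microRNA.

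Antigen presentation genes leaned higher. Of this list 15 of the 27 tested members were higher in Doxo and 2 were lower (median 0.96). HLA-E, a class I molecule that engages receptors of natural killer cells, stood at 812, 1316 and 1313 CPM in the Doxo libraries and 255, 318, 258 and 254 CPM in the Doxo+Cyta+DAC libraries. Every Doxo library was above every Doxo+Cyta+DAC library (log2 fold change 2.08, SE 0.15, adjusted p = 2.71e-07). B2M, the shared light chain of class I and the member with the most CPM, changed by 0.85. The class II chaperone CD74 (1.68, 3.78 and 1.64 CPM in Doxo and 0.368, 0.275, 0.262 and 0.475 CPM in Doxo+Cyta+DAC; log2 fold change 2.80, SE 0.39, adjusted p = 3.91e-05), HLA-DRA (2.32) and HLA-DPB1 (2.17) were higher at low levels. TAP1 (1.19), a subunit of the peptide transporter, was higher and TAP2 (-1.05), the other, was lower. HLA genes lie on several contigs and their split among alleles and copies is uncertain. The B cell marker CD79A was also higher in Doxo, within the summed levels given above, and its part in these values was not tested.

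Interferon-stimulated genes had 26 higher and 6 lower of 53 tested (median 0.48). SAMD9L, a restraint on cell growth, stood at 17.3, 26.4 and 26.8 CPM in Doxo and 5.45, 5.36, 3.94 and 5.62 CPM in Doxo+Cyta+DAC (log2 fold change 2.21, SE 0.23, adjusted p = 3.02e-06), and the RNA sensor IFIH1 at 33.9, 58.0 and 50.7 CPM in Doxo and 10.0, 11.3, 10.1 and 13.9 CPM in Doxo+Cyta+DAC (log2 fold change 2.07, SE 0.20, adjusted p = 1.77e-06). Both were higher in every Doxo library. GBP2 changed by 2.05 and IFIT2 by 1.80. The list did not move as one, since CMPK2 (-1.25), MX1 (-1.22) and OAS3 (-1.14) were lower, and 3 rather than 6 were lower without Doxo replicate 5.

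Of NF-kB and inflammatory genes, 14 of the 35 tested members were higher in Doxo and 2 were lower (median 0.60). TNFAIP2 stood at 135, 125 and 113 CPM in Doxo and 13.5, 15.1, 24.8 and 24.5 CPM in Doxo+Cyta+DAC (log2 fold change 2.68, SE 0.19, adjusted p = 2.23e-07). CXCL8, a neutrophil chemokine, stood at 24.3, 30.7 and 26.1 CPM in Doxo and 3.06, 8.67, 9.24 and 8.47 CPM in Doxo+Cyta+DAC (log2 fold change 1.88, SE 0.28, adjusted p = 6.99e-05), and both groups were above the 1.38 CPM of NT. TNF changed by 1.67, counted over 8 contigs, and no longer passed without Doxo replicate 4, 5 or 6 or Doxo+Cyta+DAC replicate 30, 31 or 33 (adjusted p 0.0154 to 0.0272). TGFB1, the member with the most CPM, did not pass (-0.23). The 2 lower members were 0 without Doxo replicate 5 and 1 without replicate 6 or Doxo+Cyta+DAC replicate 32. Cytokines and receptors of the IL1 and IL18 group had 1 higher and 2 lower of 8 tested (median -0.05). Both IL18 receptor chains were lower, IL18R1 at 4.82, 3.03 and 2.65 CPM in Doxo and 16.4, 13.8, 10.9 and 14.97 CPM in Doxo+Cyta+DAC (log2 fold change -2.004, SE 0.23, adjusted p = 7.80e-06) and IL18RAP at 0.558, 0.233 and 0.316 CPM in Doxo and 2.39, 3.71, 3.25 and 3.25 CPM in Doxo+Cyta+DAC (log2 fold change -3.09, SE 0.36, adjusted p = 8.85e-06), and their ligand IL18 was higher (0.75) with overlap between the groups, though it no longer passed without Doxo replicate 5 or 6 (adjusted p 0.0176 to 0.0232). IL1RL1, the receptor with the most CPM, did not pass (-0.19).

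JAK2, the mutated kinase of this line that relays signals of the erythropoietin and thrombopoietin receptors, stood at 374, 588 and 571 CPM in the Doxo libraries and 165, 152, 139.8 and 190.4 CPM in the Doxo+Cyta+DAC libraries. Doxo replicate 4 was the lowest of its group and still above all 4 Doxo+Cyta+DAC libraries (log2 fold change 1.66, SE 0.19, adjusted p = 8.72e-06), and the means were 409.9 ± 119 CPM in Doxo+Cyta and 425 ± 23.3 CPM in NT. Of the JAK-STAT list 12 of the 34 tested members were higher in Doxo and 3 were lower (median 0.39). SOCS3, a feedback inhibitor that STATs induce, stood at 7.68, 4.54 and 6.00 CPM in Doxo and 16.4, 24.8, 24.3 and 21.5 CPM in Doxo+Cyta+DAC and was lower (log2 fold change -1.85, SE 0.20, adjusted p = 4.99e-06), and the cytokine receptor chain IL2RG stood at 303, 394 and 408 CPM in Doxo and 167, 169, 135 and 151 CPM in Doxo+Cyta+DAC (log2 fold change 1.24, SE 0.11, adjusted p = 1.38e-06). SOCS7 changed by 1.204, and the target PIM1, the member with the most CPM, did not pass (0.16). Without Doxo replicate 6, 1 member was lower.

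Receptor tyrosine kinases had 10 higher and 6 lower of 29 tested (median 0.31), and 3 rather than 6 were lower without Doxo replicate 6. PDGFRB stood at 44.5, 43.8 and 39.3 CPM in Doxo and 5.94, 6.53, 9.08 and 7.60 CPM in Doxo+Cyta+DAC (log2 fold change 2.54, SE 0.14, adjusted p = 7.87e-08). EPHB3 had 14, 17 and 17 counts in Doxo and 0, 1, 1 and 1 counts in Doxo+Cyta+DAC, a count ratio of 21.1 (95% counting interval 6.81 to 106). EPHA1 went the other way, at 1.26, 0.757 and 0.379 CPM in Doxo and 2.88, 5.02, 5.72 and 3.56 CPM in Doxo+Cyta+DAC (log2 fold change -2.44, SE 0.41, adjusted p = 0.000185), as did EPHB4 (-2.19) and MET. TIE1, the member with the most CPM, changed by 0.59, and CSF1R, a monocyte marker, by 2.12.

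Among lineage genes of HEL, the erythroid list leaned higher and the megakaryocyte and platelet list was mixed. Of the erythroid list 22 of the 48 tested members were higher in Doxo and 2 were lower (median 0.38). SLC25A37, the mitochondrial iron importer, stood at 536, 592 and 559.9 CPM in the Doxo libraries and 151, 125, 150.3 and 201 CPM in the Doxo+Cyta+DAC libraries, and beta-globin (HBB) at 374, 522 and 484 CPM in Doxo and 132, 137, 123 and 219 CPM in Doxo+Cyta+DAC. Both were higher in every Doxo library (log2 fold change 1.84, SE 0.14, adjusted p = 4.30e-07; log2 fold change 1.59, SE 0.17, adjusted p = 5.25e-06). BLVRB, biliverdin reductase, changed by 1.82 and the erythroid master factor GATA1 by 0.77 ± 0.10 (SE, adjusted p = 2.14e-05). UROD, a heme synthesis enzyme, was lower at 142, 99.2 and 106 CPM in Doxo and 299, 464, 318 and 301 CPM in Doxo+Cyta+DAC (log2 fold change -1.58, SE 0.18, adjusted p = 6.25e-06), as was GYPB (-0.85). The fetal globin HBG2, the member with the most CPM, overlapped between the groups (log2 fold change 0.52, SE 0.14, adjusted p = 0.00671) and no longer passed without Doxo replicate 5 or 6 or Doxo+Cyta+DAC replicate 30, 31 or 32 (adjusted p 0.0122 to 0.0324), and HBG1, HBA1 and HBA2 did not pass. Globin copies are near-identical and their split is uncertain.

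Of megakaryocyte and platelet genes, 12 of the 33 tested members were higher in Doxo and 8 were lower (median 0.15), with 5 lower without Doxo replicate 5 and 4 without replicate 6. GP9, of the platelet von Willebrand factor receptor, stood at 102, 168 and 163 CPM in Doxo and 23.1, 43.3, 31.2 and 28.6 CPM in Doxo+Cyta+DAC (log2 fold change 2.198, SE 0.20, adjusted p = 1.39e-06), whereas TREML1, a platelet granule receptor, stood at 0.279, 0.233 and 0.126 CPM in Doxo and 1.59, 2.34, 2.52 and 1.35 CPM in Doxo+Cyta+DAC (log2 fold change -3.17, SE 0.45, adjusted p = 4.18e-05) and THBS1 changed by -1.88. ITGA2B (CD41), the member with the most CPM, changed by 0.46 and no longer passed without Doxo replicate 4 or 5 or Doxo+Cyta+DAC replicate 30 or 33 (adjusted p 0.0107 to 0.0293). VWF (2.19), at most 1.40 CPM, no longer passed without Doxo replicate 5 or 6 or Doxo+Cyta+DAC replicate 31 or 32 (adjusted p 0.0103 to 0.0279). RUNX1 (-0.55), a regulator of hematopoiesis, was lower.

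Stem cell genes had 12 higher and 3 lower of 30 tested (median 0.36), and 7 were higher without Doxo replicate 6. The ribonuclease ANG stood at 0.907, 2.50 and 2.65 CPM in Doxo and 0, 0.0688, 0.105 and 0.0792 CPM in Doxo+Cyta+DAC (log2 fold change 4.84, SE 0.55, adjusted p = 6.61e-06), and endomucin (EMCN), a sialomucin of stem cells and endothelium, at 0.489, 2.91 and 2.84 CPM in Doxo and 0.245, 0, 0.0525 and 0.0792 CPM in Doxo+Cyta+DAC (log2 fold change 4.35, SE 0.70, adjusted p = 0.000127; 5.37 without Doxo+Cyta+DAC replicate 30). Doxo replicate 4 was the lowest Doxo library in both. The Polycomb gene CBX7 stood at 4.40, 3.61 and 4.61 CPM in Doxo and 0.674, 0.963, 1.10 and 1.19 CPM in Doxo+Cyta+DAC (log2 fold change 2.09, SE 0.24, adjusted p = 8.57e-06), and GATA2, the member with the most CPM, at 839, 783 and 806 CPM in Doxo and 458, 524, 551 and 499.8 CPM in Doxo+Cyta+DAC (log2 fold change 0.67, SE 0.10, adjusted p = 4.40e-05). FOXO4, a quiescence factor, changed by 1.34 ± 0.19 (SE, adjusted p = 3.58e-05). FOXO1 changed by 1.09 but no longer passed without Doxo replicate 5 or 6 or Doxo+Cyta+DAC replicate 30 or 31 (adjusted p 0.0174 to 0.0330). FOXO3 (0.50) missed the threshold and passed without Doxo replicate 4 (log2 fold change 0.61, adjusted p = 0.00721). MECOM (-1.06) and ERG (-0.91) were lower.

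Members of LSC17, a stemness signature of acute myeloid leukemia, were more often lower, with 3 higher and 8 lower of 17 tested (median -0.71). Each member counted equally here, and the score of the signature was not calculated, so its direction is not given. LAPTM4B, a lysosomal protein and its member with the most CPM, stood at 408, 240.4 and 277 CPM in Doxo and 928, 1232, 889 and 961 CPM in Doxo+Cyta+DAC (log2 fold change -1.70, SE 0.18, adjusted p = 3.53e-06), the noncoding KIAA0125 at 13.5, 5.41 and 5.49 CPM in Doxo and 19.7, 38.4, 43.7 and 26.3 CPM in Doxo+Cyta+DAC (log2 fold change -1.99, SE 0.36, adjusted p = 0.000318), and EMP1 was higher (1.99). DPYSL3 (-1.61) overlapped between the groups and no longer passed without Doxo replicate 4, 5 or 6 or Doxo+Cyta+DAC replicate 30, 32 or 33 (adjusted p 0.0153 to 0.0417). Of the HOX clusters, 11 of the 24 tested members were higher in Doxo and 2 were lower (median 0.58), but 4 to 7 were higher when Doxo replicate 5 or 6 or any Doxo+Cyta+DAC library was left out, and 1 was lower without Doxo replicate 5. HOXB9, the member with the most CPM, stood at 144, 132 and 133 CPM in Doxo and 91.0, 65.3, 89.7 and 105 CPM in Doxo+Cyta+DAC (log2 fold change 0.64, SE 0.14, adjusted p = 0.00130) and HOXD1 at 6.28, 10.1 and 10.7 CPM in Doxo and 2.63, 1.72, 2.62 and 6.18 CPM in Doxo+Cyta+DAC (log2 fold change 1.48, SE 0.32, adjusted p = 0.00117). HOXA4 (2.39), HOXA3 (2.14) and HOXA13 (1.82) reached at most 0.698, 1.07 and 1.07 CPM. HOXA4 no longer passed without Doxo replicate 4 or 6 or Doxo+Cyta+DAC replicate 30, 31 or 33 (adjusted p 0.0109 to 0.0196), HOXA3 no longer passed without Doxo replicate 6 (adjusted p = 0.0127), and HOXA13 no longer passed without Doxo replicate 5 or 6 or Doxo+Cyta+DAC replicate 30, 31, 32 or 33 (adjusted p 0.0134 to 0.0722). HOXB4 (0.39) no longer passed without Doxo replicate 5 or 6 or Doxo+Cyta+DAC replicate 31 or 33 (adjusted p 0.0123 to 0.0297), and HOXB5 (0.94) no longer passed without Doxo replicate 5 or 6 or Doxo+Cyta+DAC replicate 30, 32 or 33 (adjusted p 0.0106 to 0.0388).

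Genes that take up, activate or break down the drugs used were mostly lower or not passed: 5 higher and 16 lower of 37 tested (median -0.27). DCK, deoxycytidine kinase, the activating enzyme of cytarabine and decitabine, stood at 59.8, 89.8 and 91.3 CPM in the Doxo libraries and 35.3, 33.8, 40.2 and 39.9 CPM in the Doxo+Cyta+DAC libraries. Every Doxo library was above every Doxo+Cyta+DAC library (log2 fold change 1.11, SE 0.16, adjusted p = 3.96e-05), and the means were 62.8 ± 10.7 CPM in Doxo+Cyta and 65.0 ± 5.43 CPM in NT. The nucleoside transporter SLC29A1, through which both analogs enter, stood at 111, 109.7 and 108 CPM in Doxo and 194, 162, 201 and 157 CPM in Doxo+Cyta+DAC (log2 fold change -0.70, SE 0.12, adjusted p = 0.000173), and SAMHD1, which breaks down the active triphosphates, at 3.00, 2.10 and 2.27 CPM in Doxo and 7.04, 6.67, 8.08 and 6.49 CPM in Doxo+Cyta+DAC (log2 fold change -1.53, SE 0.22, adjusted p = 5.30e-05). Transporter and hydrolase were thus higher in the Doxo+Cyta+DAC relapses and the kinase was lower. SLC28A3, a concentrative transporter, changed by 1.36 and HMOX1, heme oxygenase, by 1.62. TOP2B, the second topoisomerase II, stood at 296, 246 and 242 CPM in Doxo and 388, 412, 396 and 402 CPM in Doxo+Cyta+DAC (log2 fold change -0.61, SE 0.09, adjusted p = 7.15e-05).

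ABC transporters, which include the efflux pumps of doxorubicin, had 8 higher and 7 lower of 25 tested (median 0.06). ABCC3 stood at 21.1, 25.7 and 22.2 CPM in Doxo and 2.08, 0.757, 2.73 and 2.30 CPM in Doxo+Cyta+DAC (log2 fold change 3.53, SE 0.29, adjusted p = 5.75e-07), above the 6.59 CPM of NT, and ABCC4, the member with the most CPM, at 816, 949.7 and 921 CPM in Doxo and 400.4, 389.8, 450.2 and 553 CPM in Doxo+Cyta+DAC (log2 fold change 1.00, SE 0.16, adjusted p = 0.000118). ABCB1 (0.36), ABCC1 (0.17) and ABCG2 (-0.91), the pumps best known for anthracycline efflux, did not pass. ABCA7 was higher (1.67), and ABCF2 (-2.05) and ABCB8 (-1.83) were lower. Aldehyde dehydrogenases had 3 higher and 4 lower of 15 tested (median -0.30), 20% and 26.7%, near the shares of all tested genes. ALDH3B1 stood at 13.5, 21.7 and 15.3 CPM in Doxo and 1.10, 0.963, 1.05 and 2.61 CPM in Doxo+Cyta+DAC (log2 fold change 3.599, SE 0.29, adjusted p = 4.90e-07) and ALDH6A1 at 19.0, 24.6 and 27.1 CPM in Doxo and 4.23, 5.64, 5.61 and 6.65 CPM in Doxo+Cyta+DAC (log2 fold change 2.10, SE 0.17, adjusted p = 5.43e-07). ALDH2 was higher at up to 0.628 CPM (2.50), ALDH1B1 was lower (-0.99), and ALDH1A1, the member with the most CPM, did not pass (-0.30). Without Doxo replicate 5 or 6 or Doxo+Cyta+DAC replicate 30 or 31, 2 members were lower.

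DNA methylation enzymes had 5 higher and 6 lower of 20 tested (median 0.07). These shares were 25% and 30%, against 23.3% and 22.6% of all tested genes. DNMT1, the maintenance methyltransferase and target of decitabine, stood at 563, 346 and 344 CPM in the Doxo libraries and 1042, 1172, 1013 and 913 CPM in the Doxo+Cyta+DAC libraries. All 4 Doxo+Cyta+DAC libraries were above the Doxo libraries (log2 fold change -1.31, SE 0.16, adjusted p = 1.15e-05), and the means were 495 ± 25.03 CPM in Doxo+Cyta and 676 ± 57.7 CPM in NT. UHRF1, which brings DNMT1 to newly replicated DNA, stood at 45.4, 18.7 and 18.6 CPM in Doxo and 142, 145, 141 and 125 CPM in Doxo+Cyta+DAC (log2 fold change -2.33, SE 0.27, adjusted p = 7.64e-06). The de novo methyltransferase DNMT3B changed by -0.84 and DNMT3A, at 0.34, missed the threshold (adjusted p = 0.0199). TET1, which oxidises methylcytosine, stood at 3.84, 5.01 and 5.05 CPM in Doxo and 1.23, 1.10, 1.36 and 1.19 CPM in Doxo+Cyta+DAC (log2 fold change 1.91, SE 0.26, adjusted p = 2.70e-05), while TDG, the glycosylase that removes its products, was lower (-1.33). TET2 (1.03) no longer passed without Doxo replicate 5 or 6 or Doxo+Cyta+DAC replicate 30, 31, 32 or 33 (adjusted p 0.0125 to 0.0352), and the methyl-binding family gene MBD3 changed by -1.49, or -2.08 without Doxo replicate 4.

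Of histone deacetylases and Polycomb genes, 10 of the 34 tested members were higher in Doxo and 5 were lower (median 0.14), with 3 lower without Doxo replicate 5 or 6 or Doxo+Cyta+DAC replicate 32. HDAC5 stood at 129.6, 209 and 210.0 CPM in Doxo and 49.0, 51.0, 45.3 and 49.3 CPM in Doxo+Cyta+DAC (log2 fold change 1.91, SE 0.14, adjusted p = 3.43e-07) and PHF1 changed by 1.48. EZH1 (1.45) was higher and its relative EZH2 (-0.51), the methyltransferase of dividing cells, lower, as was HDAC2, the member with the most CPM (-0.48). Imprinted genes had 5 higher and 6 lower of 22 tested (median 0.02). These shares, 22.7% and 27.3%, were near the 23.3% and 22.6% of all tested genes. SLC22A18, which neighbours CDKN1C on chromosome 11, stood at 7.12, 8.85 and 9.15 CPM in Doxo and 0.796, 1.03, 1.26 and 1.27 CPM in Doxo+Cyta+DAC (log2 fold change 2.94, SE 0.20, adjusted p = 1.77e-07), counted over 2 contigs like CDKN1C. L3MBTL1 was higher (0.80), CD81 lower (-0.80), and GNAS, the member with the most CPM, missed the threshold (0.28, adjusted p = 0.0163) but passed without Doxo replicate 4 (log2 fold change 0.34, adjusted p = 0.00654). Cancer-testis and germline genes, silenced by methylation in most tissues, had 1 higher and 2 lower of 14 tested (median -0.24). MAGEA1, the member with the most CPM, stood at 100.7, 63.7 and 66.5 CPM in Doxo and 152, 136, 187 and 185 CPM in Doxo+Cyta+DAC (log2 fold change -1.10, SE 0.22, adjusted p = 0.000705), TEX15 changed by -2.70, and MOV10L1 by 1.02, which no longer passed without Doxo replicate 4 (adjusted p = 0.0128), while 2 members were higher without Doxo+Cyta+DAC replicate 33.

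Targets of p53 had 8 higher and 2 lower of 28 tested (median 0.17). The paper reports a loss-of-function p53 mutation in HEL, present in every group. The part of p53 in these values was not tested. CCNG1 stood at 404, 666 and 699.8 CPM in Doxo and 216, 274, 242 and 267 CPM in Doxo+Cyta+DAC (log2 fold change 1.24, SE 0.18, adjusted p = 6.05e-05) and the proapoptotic BBC3 (PUMA) at 97.4, 102 and 104 CPM in Doxo and 32.5, 41.3, 31.9 and 28.7 CPM in Doxo+Cyta+DAC (log2 fold change 1.59, SE 0.17, adjusted p = 5.19e-06). TP53INP1 changed by 1.88 and PLK2 by 1.68, but CDKN1A (0.69) and MDM2 (-0.22), the canonical targets, did not pass. Of the BCL2 family, 5 of the 15 tested members were higher in Doxo and 2 were lower (median 0.13). The antiapoptotic MCL1, its member with the most CPM, stood at 651, 556 and 552 CPM in Doxo and 261, 309, 332 and 298 CPM in Doxo+Cyta+DAC (log2 fold change 0.97, SE 0.10, adjusted p = 4.17e-06), the proapoptotic BMF was higher (1.42), and BAX, the pore-forming effector, was lower at 47.8, 28.5 and 30.2 CPM in Doxo and 79.4, 93.5, 80.7 and 68.3 CPM in Doxo+Cyta+DAC (log2 fold change -1.18, SE 0.22, adjusted p = 0.000337). BCL2A1 (1.73), at most 1.22 CPM, no longer passed without Doxo replicate 5 or 6 or Doxo+Cyta+DAC replicate 31, 32 or 33 (adjusted p 0.0193 to 0.0770).

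Lysosomal genes had 20 higher and 9 lower of 49 tested (median 0.33). The cathepsin CTSF stood at 14.03, 18.7 and 19.8 CPM in Doxo and 1.78, 1.65, 1.52 and 2.85 CPM in Doxo+Cyta+DAC (log2 fold change 3.19, SE 0.21, adjusted p = 1.64e-07), and TFEB, the master regulator of lysosome genes, at 5.51, 8.44 and 9.28 CPM in Doxo and 1.65, 1.38, 1.78 and 1.43 CPM in Doxo+Cyta+DAC (log2 fold change 2.30, SE 0.21, adjusted p = 1.44e-06). MANBA changed by 1.85 and PSAP, the member with the most CPM, by 0.70. MCOLN1, a lysosomal calcium channel, was lower (-1.89), as was LAMP1 (-1.596). Amino acid and ATF4 response genes had 7 higher and 14 lower of 31 tested (median -0.38). CHAC1, which degrades glutathione, stood at 71.2, 72.4 and 73.2 CPM in Doxo and 13.2, 14.9, 14.5 and 30.0 CPM in Doxo+Cyta+DAC (log2 fold change 2.004, SE 0.30, adjusted p = 6.00e-05), DDIT4 changed by 1.66, ATF3 by 1.69 and VLDLR by 3.41. PSAT1 (-1.49) and PHGDH (-1.21), enzymes of serine synthesis, and MTHFD1L (-1.59), of mitochondrial folate metabolism, were lower. ATF4 itself changed by 0.32 and no longer passed without Doxo replicate 5 or 6 or Doxo+Cyta+DAC replicate 30, 31, 32 or 33 (adjusted p 0.0135 to 0.0432).

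Of cholesterol and fatty acid synthesis genes, 5 of the 32 tested members were higher in Doxo and 7 were lower (median 0.15), and 11 were higher without Doxo+Cyta+DAC replicate 31 and 3 without Doxo replicate 5 or 6 or Doxo+Cyta+DAC replicate 32 or 33. FDFT1, squalene synthase, stood at 288, 444 and 462 CPM in Doxo and 160.1, 238, 182 and 172 CPM in Doxo+Cyta+DAC (log2 fold change 1.08, SE 0.16, adjusted p = 5.94e-05), while the fatty acid enzymes FASN (-0.89) and ELOVL6 (-1.52) were lower. STARD4 (1.28) overlapped between the groups and no longer passed without Doxo replicate 5 or 6 or Doxo+Cyta+DAC replicate 32 or 33 (adjusted p 0.0116 to 0.0210). Small nucleolar RNA hosts and nuclear noncoding RNAs had 6 higher and 5 lower of 19 tested (median -0.07), 3 of them lower without Doxo+Cyta+DAC replicate 30 or 32. In the full fit the shares were 31.6% higher and 26.3% lower, against 23.3% and 22.6% of all tested genes. GAS5, the member with the most CPM, stood at 526, 637 and 671 CPM in Doxo and 379, 334, 303 and 348 CPM in Doxo+Cyta+DAC (log2 fold change 0.84, SE 0.12, adjusted p = 4.50e-05), EPB41L4A-AS1 changed by 1.29 and MALAT1 by 1.26, whereas DANCR stood at 49.7, 43.9 and 43.1 CPM in Doxo and 157, 138, 126 and 123 CPM in Doxo+Cyta+DAC (log2 fold change -1.58, SE 0.13, adjusted p = 8.06e-07) and SNHG4 changed by -1.46. Reads of antisense and host transcripts cannot be assigned to a strand in these counts.

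Adhesion and cytoskeleton genes had 11 higher and 9 lower of 42 tested (median 0.12), 5 lower without Doxo replicate 5 or 6. In the full fit the shares, 26.2% higher and 21.4% lower, were near the 23.3% and 22.6% of all tested genes. The integrin ITGAL stood at 68.8, 65.0 and 53.02 CPM in Doxo and 24.4, 21.3, 26.6 and 22.5 CPM in Doxo+Cyta+DAC (log2 fold change 1.39, SE 0.17, adjusted p = 1.21e-05) and ITGAX at 2.51, 3.20 and 2.02 CPM in Doxo and 0.490, 0.413, 0.420 and 0.554 CPM in Doxo+Cyta+DAC (log2 fold change 2.45, SE 0.29, adjusted p = 9.84e-06). The homing receptor CCR7, at most 1.05 CPM, was lower (-2.70), and no longer passed without Doxo replicate 5 or 6 (adjusted p 0.0142 to 0.0165).

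By chromosome, the median log2 fold change over the tested genes lay between -0.11 (chromosome 16) and 0.13 (chromosome X) for all 23 chromosomes tested. Over 152 windows of 20 Mb with at least 20 tested genes, medians ran from -0.37 in a window at the start of chromosome 22 (29 genes) to 0.37 at chr7:20000001-40000000 (91 genes), where 30.8% of genes were higher and 11.0% lower. The latter window holds the HOXA cluster. Shares were also one-sided around other genes named above. At chr9:1-20000000 (51 genes, median 0.33), which holds JAK2 and VLDLR, 43.1% were higher and 9.80% lower. At chr12:120000001-140000000 (103 genes, median -0.26), which holds POLE, 14.6% were higher and 40.8% lower. The part of position in the values of these genes was not tested.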

How the data were processed

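RNA of the 12 samples was sequenced by the authors as paired 100-base reads (TruSeq, HiSeq2000) and aligned to GRCh38 with Bowtie2 2.2.8. The deposited values are raw read counts per gene from featureCounts 1.6.0, with no strand setting stated. Columns were matched to samples by their labels. Of 26485 genes, 4 were left out for a missing count. A gene counted on several contigs, or near-identical to another, is uncertain.

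Counts were scaled by TMM, filtered with filterByExpr (14164 genes kept) and fitted with the quasi-likelihood test of edgeR 4.0.16 (R 4.3.3) over all 12 samples, with the contrast Doxo minus Doxo+Cyta+DAC. P-values are two-sided, with Benjamini-Hochberg adjustment over all tested genes. A gene passed at an adjusted p under 0.01 and was called at a fold change over 2 as well. The SE is the log2 fold change divided by the square root of F. Total counts were 12763582 to 19106235 per compared library, and intervals and the floor of 3 counts cover counting error only. DESeq2 1.42.0 and other alternatives are given in the closing section.

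Named genes were, per direction, the 10 largest fold changes with no overlap and at least 10 CPM, the 5 largest with at least 1 CPM and the 5 largest CPM differences among called genes, then per list the 4 largest changes that passed and the member with the most CPM, and genes the study names for this contrast. Some of them are not reported here. The genes DCK, SLC29A1, TOP2B, DNMT3A, DNMT3B, TET2, MYC, MIR210, P4HA1, BNIP3, MXD4, CDC45 and GATA1, and list members given only with a fold change, were chosen after their values were seen. The comparison and the 36 gene lists were chosen with earlier results of these data known. Of 1337 list entries, 2 were not matched.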

Additional observations from a re-analysis of the deposited data

Results flagged for a closer look

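In 16 of 220 values tested over the 4 Doxo+Cyta+DAC libraries, 1 library stood apart, with its gap to the nearest other library above Dixon's critical value for 4 samples. Chance flags about 1 in 20 groups, and the causes were not tested. In replicate 33, FAM178B stood at 1.74 CPM against 0.413 to 0.472 in the others, ALDH3B1 stood at 2.61 CPM against 0.963 to 1.10 in the others, SLC19A1 stood at 156 CPM against 202 to 204 in the others, BLVRB stood at 134 CPM against 74.8 to 81.9 in the others, HBB stood at 219 CPM against 123 to 137 in the others, CHAC1 stood at 30.0 CPM against 13.2 to 14.9 in the others and EPRS stood at 522 CPM against 441 to 449 in the others. In replicate 31, HLA-E stood at 318 CPM against 254 to 258 in the others, FAM81A stood at 4.47 CPM against 1.74 to 2.08 in the others, UROD stood at 464 CPM against 299 to 318 in the others and TP53INP1 stood at 1.38 CPM against 1.03 to 1.05 in the others. In replicate 32, SAMD9L stood at 3.94 CPM against 5.36 to 5.62 in the others. COL17A1 stood at 0.105 CPM there and MIR210 at 0.0525 CPM, both against 0 in the others. Both were under the floor of 3 counts, and with the others at 0 any read would be flagged. In replicate 30, CXCL8 stood at 3.06 CPM against 8.47 to 9.24 in the others and ATF4 stood at 555 CPM against 582 to 587 in the others.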

How the results depend on the processing

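The numbers of genes called were most sensitive to the fold threshold. Tested against a fold change of 2 itself (glmTreat), 528 genes were higher and 288 lower in Doxo, and at the thresholds of the study's methods (adjusted p under 0.05 and natural log of the fold change beyond 1) 964 and 687 were, because both ask for a larger fold change. Leaving out each of the 7 libraries in turn gave 1418 to 1802 genes called higher and 1074 to 1783 called lower, and 2506 to 3345 and 2343 to 3364 genes that passed. The counts stayed within 1.5 times under RLE and upper-quartile scaling, DESeq2, both filters on low counts, a fit of the compared groups alone and libraries drawn down to the smallest total. Scaling moved the median of all genes by less than 0.04 on the log2 scale. Of 219 named genes, 208 passed. An adjusted p under 0.01 was lost for 92 under glmTreat, where genes that passed with less than a 2-fold change, such as GAPDH, could not pass. It was lost for 22 each without Doxo replicate 5 or 6 and for 5 without Doxo replicate 4. Without a Doxo+Cyta+DAC library it was lost for 11 to 13, and with DESeq2 for 4. BTG2, at -0.20 and not passed, changed sign, to 0.060 without Doxo+Cyta+DAC replicate 31, and was -0.45 without replicate 30. The cause was not tested. No paired analysis was possible because the groups compared share no replicate numbers. The sample numbers of 3 and 4 limit the precision of low genes most, and all values rest on 1 cell line.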

Other observations

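The promoter windows of the called genes differed in CpG content. Windows with fewer than 10 CpG dinucleotides in 300 bases made up 14.11% of those of all tested genes, 22.38% of those of genes called higher in Doxo (278 of 1242) and 11.02% of those of genes called lower (117 of 1062). The median number of CpG was 26, 23 and 26. Beyond 8-fold the order was reversed. Windows with fewer than 10 CpG were then 32.35% of those higher in Doxo (22 of 68) and 50% of those lower (12 of 24). The medians there were 18.5 and 10 CpG. These shares are descriptions, since genes are not independent replicates, and no methylation was measured in these files.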
